A study of Mus musculus with 10 samples.

Results

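Notch signaling passes between neighboring cells: a ligand of the Delta-like or Jagged family on a cell engages a Notch receptor on the next, the receptor is cut by ADAM proteases and gamma-secretase, and its intracellular domain enters the nucleus, where it joins RBPJ and switches on Hes and Hey genes. In the intestinal crypt, Notch keeps stem and progenitor cells from the secretory fate, with Hes1 repressing Atoh1, the master regulator of goblet, Paneth and enteroendocrine cells. Outside the epithelium, Notch4 and Dll4 are known from blood vessel endothelium, and Notch3, Jag1 and Heyl from the pericytes and smooth muscle cells around vessels. The receptors Notch1, Notch2, Notch3 and Notch4, the ligands Dll1, Dll4, Jag1 and Jag2 and the target genes Hes1 and Heyl were taken by gene symbol, which gave 10 genes of the 47069 in the count table, and all 10 passed the filter on low counts.

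The RNA-seq data came from intestinal organoids of C57BL/6 mice, grown for 50 days in Matrigel with Noggin, EGF and R-spondin-1. The 10 libraries fell into 5 groups of 2: control (the medium with saline), DMBA (the carcinogen dimethylbenzanthracene, marked Long), TAM short and TAM long (tamoxifen, with the words dosage-sensitive on the label), and DMBA+TAM. By the methods of the study, the organoids of all groups came from mice that were Ppp2r1a flox/flox and carried Lgr5-EGFP-CreERT2, in which tamoxifen switches on Cre only in cells with an active Lgr5 promoter and deletes part of Ppp2r1a, which encodes the scaffold subunit of the phosphatase PP2A. The question was how DMBA, loss of PP2A and their combination change gene expression. What short and long stand for is not given in the sources used here, nor is which TAM schedule the DMBA+TAM group had. The libraries are titled NS (control), NL (DMBA), DSS_S (TAM short), DSS_L (TAM long) and Lgr5 (DMBA+TAM), and what S, L and DSS stand for in these titles is not given either. The study writes DSS for dextran sulfate sodium, a colitis agent, when it speaks of colitis in mice, and the descriptions of these libraries name no such agent. The groups were taken from the treatments in the descriptions. For organoid culture the study gives replicate samples per condition and repeated experiments, without tying them to the RNA-seq libraries. Whether the libraries of a group came from separate cultures or animals is not stated. The p-values therefore measure the spread between these samples, which may be technical.

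The DMBA+TAM libraries were shallow and stood apart from the rest. They held 1592366 and 1915270 counts, against 8828247 to 10923673 in the other 8 libraries, so that 3 counts were worth 1.58 and 1.32 CPM (counts scaled to a common library total) there and 0.259 to 0.379 CPM elsewhere. Ppp2r1a, counted over the whole gene, was at 123 and 129 CPM in the control, 131 and 147 in TAM short, 169 and 157 in TAM long and, with DMBA, at 167 and 153 (DMBA) or 129 and 133 (DMBA+TAM), and was thus not lower in any group given tamoxifen than in the control. It was lower in DMBA+TAM than in TAM long, by −0.31 ± 0.115 on the log2 scale (adjusted p = 0.0403), and its difference from DMBA was −0.29 (adjusted p = 0.0575). Its change from DMBA to DMBA+TAM differed from its change from control to TAM long by −0.66 ± 0.16 (edgeR, adjusted p = 0.0072). The epithelial markers of an intestinal organoid were all but missing from DMBA+TAM: 10 of 10 fell against the control, their summed level was 24.2 to 39.6 CPM against 22300 to 23200, and Epcam had 3 counts in each library. Of 8 crypt stem cell markers, 5 fell and Lgr5 rose, from 6.49 to 16.3 CPM in the group means. In the same libraries 9 of 10 fibroblast markers rose (sum 33100 to 33800 CPM against 1380 to 1520), as did 10 of 10 endothelial markers (761 to 776 against 104 to 117) and 5 of 8 immune markers (1240 to 1300 against 60.9 to 106). Of 10 pericyte and smooth muscle markers, 4 rose and 4 fell in DMBA+TAM, whereas 9 rose in DMBA and 8 in TAM long. Of the fibroblast markers, 8 rose and 1 fell in DMBA (sum 2210 to 2530 CPM). In TAM long 6 of them rose and 2 fell (1640 to 2060 CPM). Small intestinal markers summed to 33700 to 36700 CPM in the control and 18000 to 19900 in TAM short, but to 297 to 692 in DMBA and 878 to 936 in TAM long, in each of which 5 of 6 colon markers rose. TAM short also differed from the control, in that 7 of 10 small intestinal markers fell, with Lct at 27 and 7 counts against 11317 and 12909, and Fabp6, a marker of the ileum, rose, with 69451 and 71046 counts against 25 and 2. A difference in gut segment and the treatment therefore cannot be told apart where DMBA or TAM long is set against control or TAM short, or TAM short against control, and this holds for the Notch genes in these comparisons and in the tests of interaction. DMBA+TAM was low in both kinds of segment marker, at 1.06 to 3.97 CPM for the small intestine and 33.5 to 47.0 for the colon, where the control had 487 to 513. These marker levels moved together with the Notch genes below, and their part in those results was not tested. In bulk samples such as these, fewer cells of a type and less RNA per cell cannot be told apart.

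**Figure D1:**
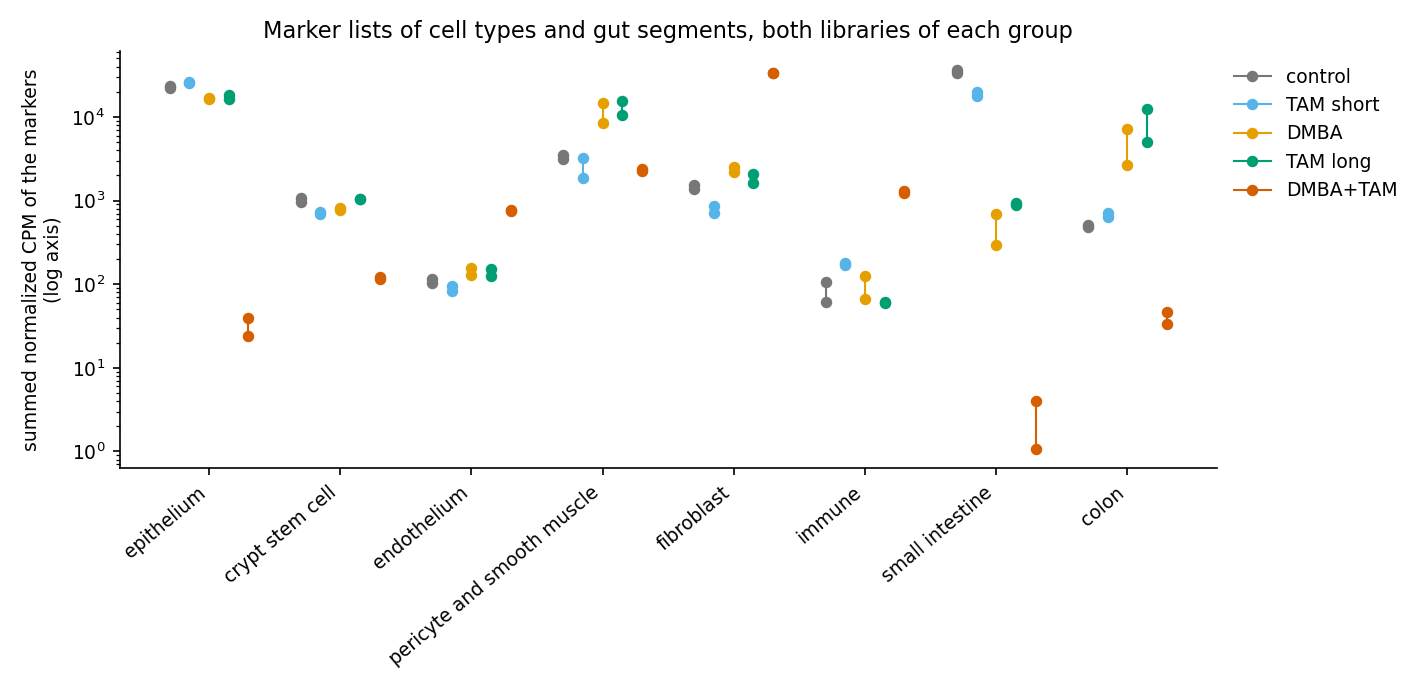
Summed normalized CPM (log axis) of marker lists for cell types and gut segments, with a point for each of the 2 libraries of a group. Epithelial markers in DMBA+TAM sit at 24.2 and 39.6 CPM, below all other libraries, while fibroblast, endothelial and immune markers are highest there.

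Promoter sequences are shown for Notch3, the receptor with the largest rise in DMBA+TAM against the control, and for Dll1, the ligand that fell in that comparison. Both genes lie on chromosome 17, minus strand, and the bases are the 250 just before a RefSeq start of each gene on GRCm38.p6, written 5′ to 3′. Dll1 has 2 starts, and the bases shown precede the one further upstream. Capitals mark the N-box CACNAG, the motif that Hes proteins bind, on either strand.
Notch3, chr17:32166891-32167140: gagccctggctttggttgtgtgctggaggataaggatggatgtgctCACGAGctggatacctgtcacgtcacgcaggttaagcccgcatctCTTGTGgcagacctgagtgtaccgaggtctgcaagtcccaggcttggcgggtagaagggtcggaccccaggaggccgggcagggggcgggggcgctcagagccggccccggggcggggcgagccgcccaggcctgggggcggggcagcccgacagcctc
Dll1, chr17:15376933-15377182: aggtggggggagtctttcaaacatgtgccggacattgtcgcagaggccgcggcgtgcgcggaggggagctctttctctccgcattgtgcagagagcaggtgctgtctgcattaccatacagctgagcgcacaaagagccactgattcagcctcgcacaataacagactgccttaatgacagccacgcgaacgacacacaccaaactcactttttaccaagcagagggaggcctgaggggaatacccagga
Of the members, 8 matched the RefSeq table, with 9 windows of 300 bases (250 before and 50 after the start), since Dll1 has 2 starts. An N-box was found in windows of 5 members, Notch1, Notch2, Notch3, Dll1 and Dll4, and in 42.5% of all 32851 windows of this length. That of Dll1 lies 13 bases after its further upstream start, outside the bases shown. TGGGAA, the core of the RBPJ site, was found on neither strand in the 9 windows, and it occurs in 25.6% of all windows; these motifs do not contain each other. Such matches describe letters in these windows only.

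In DMBA+TAM, most of the Notch genes were higher than in the control. Of the 10 members, 8 rose, Dll1 fell, and Dll4 did not pass the threshold (edgeR quasi-likelihood test, Benjamini-Hochberg adjusted p under 0.05 over all 16179 genes tested). In this comparison 64.3% of all genes passed, 29.0% higher and 35.3% lower, so a call in itself was common. The median log2 fold change over the members was 2.56, and over all genes tested it was −0.17. The rises ran from 1.15 for Hes1 to 5.26 for Heyl on the log2 scale.

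**Figure D2:**
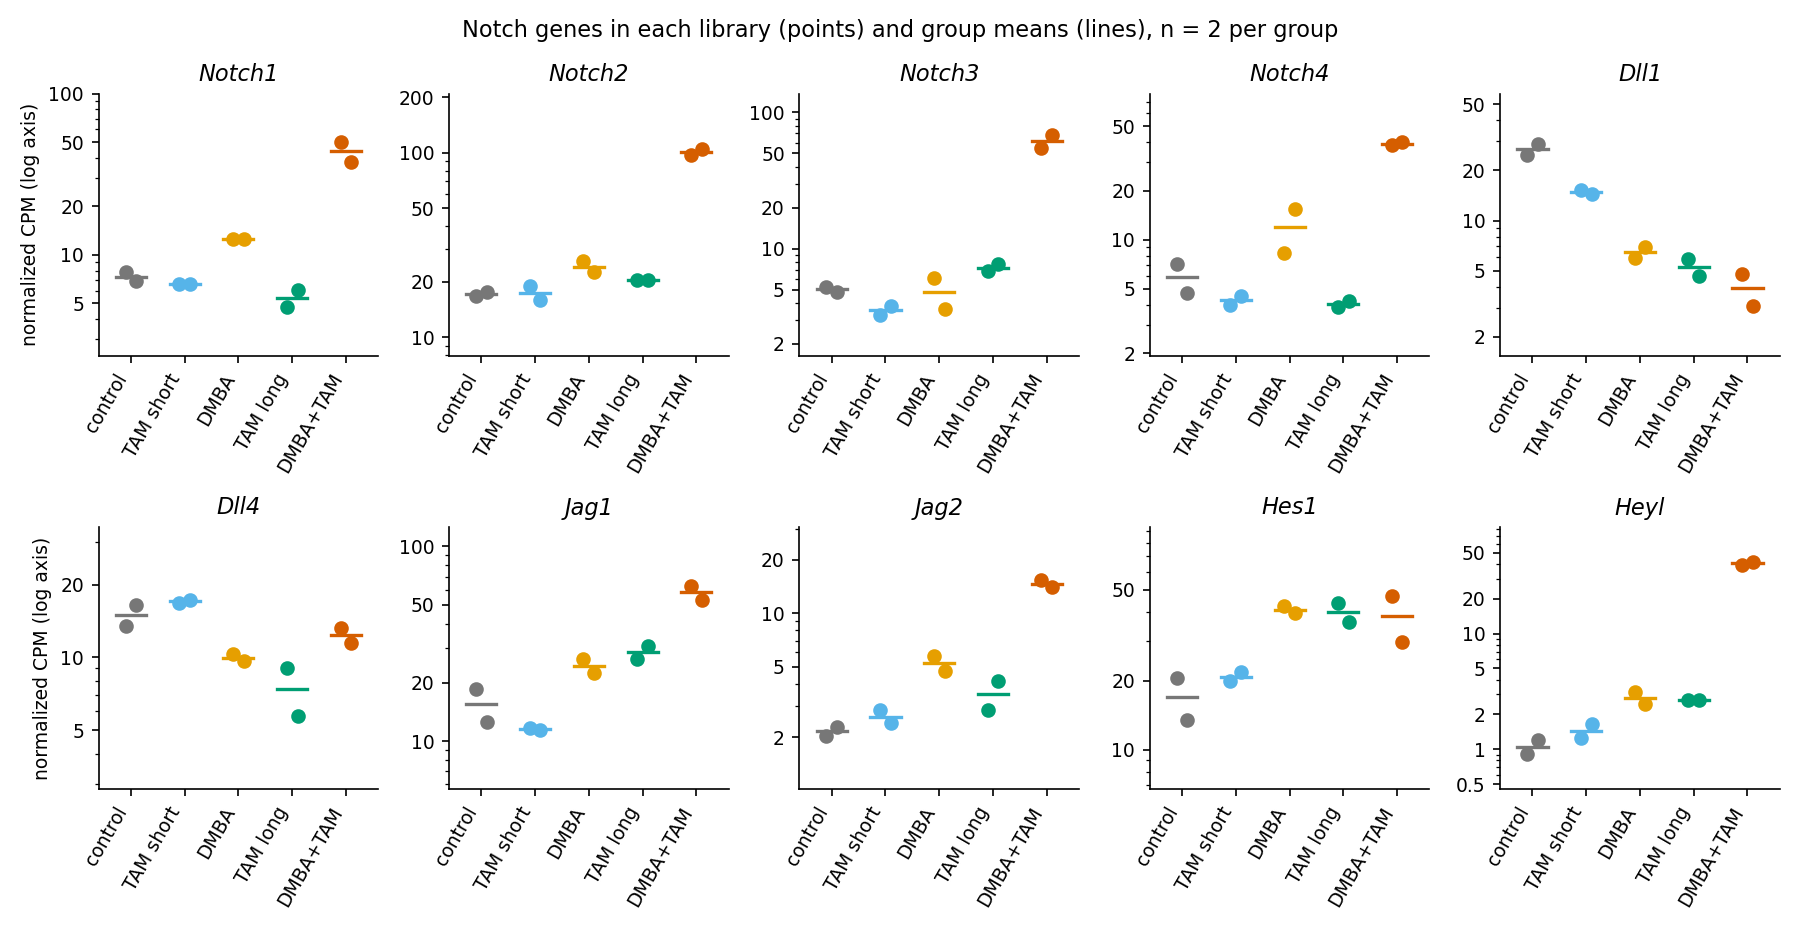
Normalized CPM (log axis) of the 10 genes in each library (points), with the group mean as a line, n = 2 per group. All 4 receptors, Jag1, Jag2 and Heyl are highest in both DMBA+TAM libraries, Dll1 is highest in the control, and Hes1 is higher in DMBA, TAM long and DMBA+TAM than in control and TAM short.

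All 4 receptors were higher in DMBA+TAM than in every other library. Notch3 (chr17:32120820-32166880, minus strand) was at 54.9 and 68.7 CPM in DMBA+TAM. The TAM long libraries had 6.81 and 7.67, the DMBA libraries 6.07 and 3.59, the control 5.20 and 4.82 and TAM short 3.28 and 3.79. The libraries of the other 4 groups thus lay between 3.28 and 7.67, and Notch3 rose against the control by 3.62 ± 0.258 (log2 fold change ± SE, adjusted p = 1.17e-06). Notch1 (chr2:26457903-26516663, minus strand), the receptor best known from intestinal crypts together with Notch2, was at 50.2 and 37.9 CPM in DMBA+TAM against 7.80 and 6.86 in the control, a rise of 2.58 ± 0.211 (adjusted p = 3.07e-06). It was also higher in DMBA, at 12.5 CPM in both libraries, than in TAM short (6.55 and 6.56) and TAM long (4.74 and 6.09).

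Notch2 (chr3:98013527-98150361, plus strand) ranged from 15.9 to 25.8 CPM in the other groups, with 25.8 and 22.5 CPM in DMBA, 20.4 and 20.3 in TAM long, 16.7 and 17.7 in the control and 19.0 and 15.9 in TAM short. In DMBA+TAM it reached 97.1 and 104.9 CPM, a rise of 2.55 ± 0.144 over the control (adjusted p = 2.5e-07). Notch4 (chr17:34564268-34588503, plus strand) rose by 2.71 ± 0.32 (adjusted p = 4.14e-05), from 7.12 and 4.70 CPM in the control to 38.0 and 39.7 in DMBA+TAM. The DMBA libraries, at 8.31 and 15.5 CPM, differed from each other by more than their mean differed from that of the control, and TAM short (3.95 and 4.54) and TAM long (3.88 and 4.23) overlapped. Pecam1 and Cdh5, defining markers of endothelium, rose by 3.27 and 3.76 in the same comparison, and Pdgfrb, from the pericyte and smooth muscle list, by 3.72. Fibroblast markers rose in these libraries as well, and which cells the Pdgfrb counts came from was not tested. The list of pericyte and smooth muscle markers was split there. Cspg4, Acta2 and Tagln rose too, by 3.91, 1.29 and 1.47. The smooth muscle genes Myh11, Mylk, Cnn1 and Actg2 fell, with values of −4.39, −3.89, −3.31 and −2.15. Rgs5 (250 CPM in the control and 367 in DMBA+TAM, group means) and Des (236 and 262) did not pass.

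The ligands did not move as a family. Dll1 (chr17:15367354-15376872, minus strand), a Delta-like ligand that secretory progenitors present in the crypt, had 24.9 and 29.0 CPM in the control and 15.3 and 14.5 in TAM short. The DMBA libraries were at 5.98 and 6.96, those of TAM long at 5.87 and 4.62 and those of DMBA+TAM at 4.75 and 3.08. The DMBA+TAM values rest on 9 and 7 counts and overlap those of TAM long. Against the control Dll1 fell by 2.80 in DMBA+TAM (SE 0.273, adjusted p = 1.08e-05). Dll4 (chr2:119325784-119335962, plus strand), a ligand shared by crypt cells and endothelium, was at 13.2 and 11.5 CPM in DMBA+TAM and 13.5 and 16.4 in the control. The difference of −0.28 ± 0.26 did not pass the threshold (adjusted p = 0.372), and it was 0.22 with library size alone as the scaling.

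Both Jagged ligands were higher in DMBA+TAM. Jag1 (chr2:137081456-137116644, minus strand) was at 62.8 and 53.3 CPM there, at 26.5 and 22.4 in DMBA and 26.4 and 30.8 in TAM long, and at 18.5 and 12.5 in the control and 11.6 and 11.4 in TAM short. DMBA and TAM long overlapped each other and lay in between, and the rise from control to DMBA+TAM was 1.90 ± 0.208 (adjusted p = 2.47e-05). Jag2 (chr12:112908590-112929495, minus strand), the weakest ligand in the control with 2.04 and 2.29 CPM, reached 15.3 and 14.1 in DMBA+TAM. Its rise was 2.76 ± 0.319 (adjusted p = 3.62e-05), with DMBA (5.71 and 4.72), TAM long (2.85 and 4.13) and TAM short (2.83 and 2.40) in between.

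The target genes followed different courses. Hes1 (chr16:30064384-30067796, plus strand), the repressor that keeps crypt progenitors from the secretory fate, was at 47.0 and 29.5 CPM in DMBA+TAM, 43.7 and 36.3 in TAM long and 42.3 and 39.4 in DMBA. The control had 20.6 and 13.5 and TAM short 20.0 and 21.8, below the other 3 groups, which overlapped. Hes1 rose in DMBA+TAM by 1.15 ± 0.255 over the control (adjusted p = 0.00277), but against DMBA the difference was −0.11 (95% interval −0.65 to 0.44, adjusted p = 0.735) and against TAM long −0.08 (−0.62 to 0.47, adjusted p = 0.815). Heyl (chr4:123233556-123249875, plus strand), a Hairy-related repressor of vessel-associated cells, was nearly silent in the control at 0.905 and 1.20 CPM, on 8 and 10 counts. It stood at 39.6 and 41.9 CPM in DMBA+TAM, a rise of 5.26 ± 0.296 (adjusted p = 2.45e-07), while DMBA had 3.13 and 2.47, TAM long 2.67 and 2.65 and TAM short 1.24 and 1.64.

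DMBA+TAM was then set against the other treated groups, each of which shares a treatment with it. In these groups epithelial markers summed to between 16300 and 26100 CPM, against 24.2 to 39.6 in DMBA+TAM, and their part in these comparisons was not tested. Against DMBA, 7 members rose and none fell (background 55.1%, 25.2% higher and 29.9% lower); the receptors rose by 1.72 (Notch4) to 3.66 (Notch3), Jag1 by 1.24, Jag2 by 1.49 and Heyl by 3.85. Against TAM long, 8 rose and none fell (background 55.2%, 25.3% higher and 29.9% lower), with the receptors up by 2.31 to 3.26 and Heyl by 3.93. Dll4 was among these 8 at 0.73 ± 0.269 (adjusted p = 0.0423), and this call was lost without TAM long replicate 2 (adjusted p = 0.176), without DMBA+TAM replicate 1 (0.162) and without DMBA+TAM replicate 2 (0.0824). Against TAM short, 8 rose, Dll1 fell and Dll4 did not pass (background 63.1%, 29.3% higher and 33.8% lower). Hes1 was the smallest of these rises, at 0.86 ± 0.252 (adjusted p = 0.0133), and lost its call without DMBA+TAM replicate 1 (0.155) or TAM short replicate 1 (0.0669). Dll1 did not pass against DMBA (−0.74, 95% interval −1.42 to −0.06, adjusted p = 0.0669) or TAM long (−0.45, −1.13 to 0.24, adjusted p = 0.286). These 4 comparisons share the DMBA+TAM libraries.

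**Figure D3:**
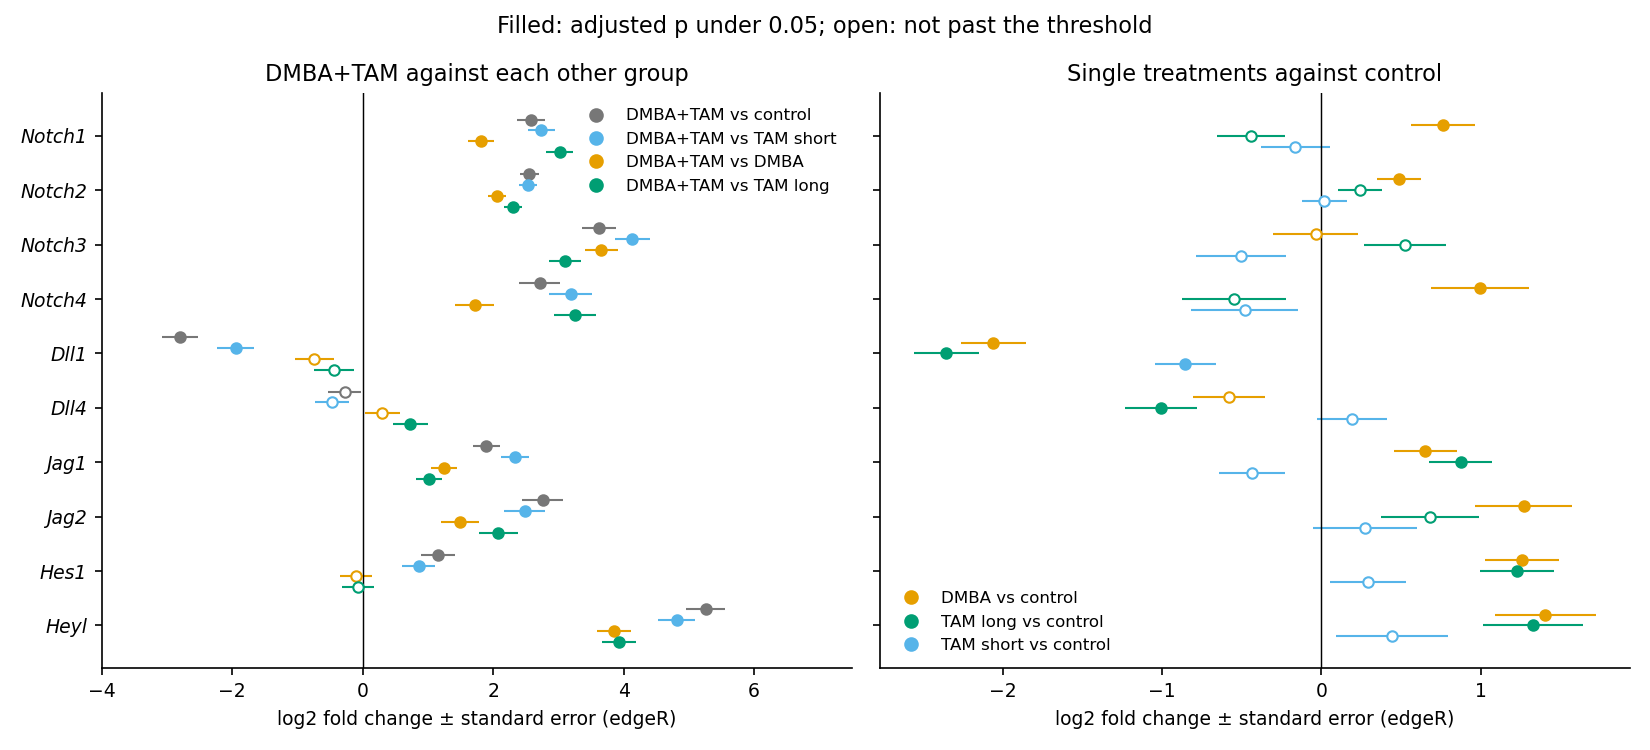
Log2 fold changes with standard errors (edgeR) of the 10 genes, with DMBA+TAM against each other group on the left and the single treatments against control on the right. Filled points passed adjusted p under 0.05. The 4 receptors, Jag1, Jag2 and Heyl are right of 0 in all 4 comparisons on the left, and Dll1 is left of 0 in all 7.

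The single treatments were then set against the control. In DMBA, 7 members rose against the control and Dll1 fell (background 47.8%, 24.5% higher and 23.3% lower), led by Heyl (1.41), Jag2 (1.27) and Hes1 (1.26), with Notch4 at 0.99, Notch1 at 0.77, Jag1 at 0.65 and Notch2 at 0.49. Dll1 fell by 2.06 (adjusted p = 3.84e-05), and Dll4 (−0.58, adjusted p = 0.0571) and Notch3 (−0.04, adjusted p = 0.927) did not pass. The count of 8 calls rested on single libraries: without control replicate 2 it was 4, as Notch1, Notch2, Notch4 and Jag1 no longer passed, and Notch4 was also lost without DMBA replicate 2 (0.49, adjusted p = 0.177). Notch2 and Jag2 (adjusted p = 0.0503) were lost without control replicate 1, and Notch2 and Jag1 without DMBA replicate 1.

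In TAM long, Jag1 (0.88), Hes1 (1.23) and Heyl (1.33) rose against the control and Dll1 and Dll4 fell by 2.35 and 1.01, and none of the 4 receptors passed (background 46.0%, 23.2% higher and 22.8% lower). The receptors' differences lay between −0.55 for Notch4 and 0.53 for Notch3. With library size alone as the scaling, 3 further members passed in this comparison, receptors among them. Heyl rests on few counts and missed the threshold without control replicate 1 (adjusted p = 0.054). In TAM short, Dll1 fell by 0.86 (adjusted p = 0.0167) and no other member passed (background 14.3%, 6.52% higher and 7.80% lower). That call was lost when any of the 4 libraries was left out, with adjusted p from 0.056 to 0.137, although both TAM short libraries lay below both control libraries.

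The treated groups were also compared among themselves. DMBA and TAM long differed at Notch1 and Notch4 alone among the members, which were lower in TAM long by 1.21 (adjusted p = 0.0202) and 1.54 (adjusted p = 0.0362), while few genes of the whole table differed (background 2.70%, 1.24% higher and 1.46% lower). Without TAM long replicate 1 neither passed (adjusted p = 0.166 and 0.208), and Notch4 was also lost without DMBA replicate 2 (0.0816) and without TAM long replicate 2 (0.126). TAM long against TAM short gave 4 rises, Jag1 (1.31), Notch3 (1.03), Hes1 (0.94) and Heyl (0.89), and falls of Dll1 and of Dll4, the latter by 1.20 (background 42.2%, 22.0% higher and 20.3% lower), of which 3 remained called without TAM short replicate 1. Heyl lost its call when any of the 4 libraries was left out, Notch3 without TAM short replicate 1 or TAM long replicate 2, and Hes1 without replicate 1 of either group. DMBA against TAM short gave 7 rises, from 0.47 (Notch2) to 1.48 (Notch4), with Dll1 down by 1.20 and Dll4 by 0.77 (background 46.2%, 24.5% higher and 21.8% lower). Without TAM short replicate 1 the count of 9 calls was 5, as Dll4, Jag2, Hes1 and Heyl no longer passed. Jag2 and Dll4 were also lost without TAM short replicate 2, as was Notch2, and without DMBA replicate 1 Notch2, Jag2 and Heyl were lost, and without DMBA replicate 2 Dll4.

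Thinning all libraries to the smallest total ended many of these calls, and for the single treatments against the control it kept those of Notch4, Dll1 and Hes1 in DMBA and of Dll1, Jag1 and Hes1 in TAM long. In TAM long against TAM short, Dll1 was then at −0.60 (adjusted p = 0.369) and Dll4 at −0.79 (0.167), with Notch3 and Heyl also lost. In DMBA against TAM short, 7 calls were lost, among them Notch1 (adjusted p = 0.156), Dll1 (0.0764) and Hes1 (0.0509), and Notch4 and Jag1 kept theirs. Neither call of TAM long against DMBA passed after thinning, nor did Dll1 in TAM short against control (adjusted p = 0.165), Dll4 in DMBA+TAM against TAM long (0.113) or Hes1 in DMBA+TAM against TAM short (0.0556). Heyl was also lost with DESeq2 and without the filter on low counts in TAM long against TAM short (adjusted p = 0.0973 and 0.0943) and in DMBA against TAM short (0.0646 and 0.0551). Dll4 was lost in DMBA against TAM short with library size alone (adjusted p = 0.0844), and in TAM long against control with limma on log2(FPKM + 1) (0.0527).

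The design also allowed a test of whether TAM acted alike with and without DMBA, taking TAM long as the TAM group. The difference between the change from DMBA to DMBA+TAM and the change from control to TAM long passed the threshold for 8 members, 7 of them above 0 (background 48.2%, 21.6% higher and 26.5% lower). Notch3 moved by 3.66 with DMBA and by 0.53 without it, so that the 2 changes differed by 3.13 ± 0.36 (adjusted p = 7.06e-05). Hes1 was the member below 0, at −1.34 ± 0.337 (adjusted p = 0.00869), as it rose by 1.23 with TAM alone and differed by −0.11 once DMBA was present. Dll1 had a value of 1.61 ± 0.386 (adjusted p = 0.00665), since it fell by 2.35 with TAM alone and by 0.74 more, without passing, on top of DMBA. That call was lost without DMBA+TAM replicate 1 (adjusted p = 0.0843). Jag1 and Jag2, at 0.37 and 0.80, did not pass. The DMBA+TAM libraries, which enter each of these values, also differed in depth and nearly lacked epithelial markers, and the part of those markers was not tested. After counts were thinned to the total of the smallest library, Notch4 (adjusted p = 0.198), Dll1 (0.321), Dll4 (0.108) and Heyl (0.0792) no longer passed.

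Since the TAM schedule of DMBA+TAM is unknown, the same test was run with TAM short as the TAM group, a choice made after seeing the data. It gave 7 calls, all above 0 (background 42.8%, 19.9% higher and 23.0% lower): the 4 receptors from 1.97 (Notch1) to 4.17 (Notch3), Jag1 at 1.68, Jag2 at 1.21 (adjusted p = 0.0482) and Heyl at 3.41. Hes1 (−0.40, 95% interval −1.17 to 0.37, adjusted p = 0.38), Dll1 (0.11, −0.72 to 0.95, adjusted p = 0.852) and Dll4 (0.11, −0.66 to 0.87, adjusted p = 0.837) did not pass. The calls of Hes1, Dll1, Dll4, Jag1 and Jag2 thus depended on which TAM group was used, and the receptors and Heyl passed with either.

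Receptor and ligand levels were next compared per kilobase, as CPM divided by the gene length listed in the table. The 4 receptors summed to 27.1 and 28.5 CPM per kilobase in DMBA+TAM, and to 5.79 and 6.25 in DMBA, 4.14 and 3.72 in the control, 3.88 and 4.17 in TAM long and 3.51 and 3.37 in TAM short. The ligands summed to 19.8 and 16.9 in DMBA+TAM, 14.3 and 15.3 in the control, 11.5 and 11.3 in TAM short, 10.5 and 9.67 in DMBA and 9.46 and 9.31 in TAM long. By listed length the ratio of ligand to receptor level was thus 3.46 and 4.10 in the control, whereas it was 0.731 and 0.592 in DMBA+TAM. The sums and ratios depend on the length used, and no other length was tried for them. These sums and ratios were not tested. With 2 libraries against 2, the smallest p an exact two-sided permutation test can give is 0.33.

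By listed length, Dll1 was the leading ligand in the control, Dll4 (39.9%) stood just above it in TAM short, and Jag1 led in the 3 groups with DMBA or long TAM. The share of Dll1 in the summed ligand level was 50.7% ± 3.28 (SD, n = 2) in the control and 36.4% ± 0.738 in TAM short. DMBA had 18.0% ± 3.02, TAM long 15.6% ± 2.45 and DMBA+TAM 5.90% ± 1.13. Jag1 made up 18.8% ± 5.96 in the control and 18.0% ± 0.041 in TAM short, but 43.0% ± 2.56, 54.3% ± 6.47 and 56.4% ± 0.181 in DMBA, TAM long and DMBA+TAM. In both libraries of each of those 3 groups Dll1 stood below Jag1, with ratios of 0.0907 to 0.488, against 2.00 to 3.63 in control and TAM short. Jag2 grew from 3.60% ± 0.138 in the control to 19.8% ± 1.08 in DMBA+TAM. Control and TAM short, where Dll1 stood above Jag1, were also the groups with high small intestinal markers, while colon markers were high in DMBA and TAM long and low in DMBA+TAM. The part of these markers in the make-up was not tested.

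Among the receptors the make-up shifted less. Notch2 had the largest share by listed length in each group mean, from 34.5% in DMBA+TAM to 48.3% in TAM short and TAM long, though Notch4 (37.6%) exceeded it (34.2%) in DMBA replicate 2. Notch3 grew from 15.8% ± 0.346 in the control to 27.5% ± 3.38 in DMBA+TAM. The order of receptors, and that of Dll1 and Dll4 in TAM short, depends on the length used: the listed length is that of the longest transcript for most members, while the deposited FPKM values rest on a shorter length for most, 1519 bases in place of 9488 for Notch1, and on the same length for Notch3 and Jag2. With the lengths behind FPKM, Notch1 led in each group mean, at 40.1% in the control against 23.3% for Notch2, though Notch4 exceeded it in replicate 2 of DMBA and of DMBA+TAM, and Notch2 in TAM long replicate 1. By those lengths Notch3 made up 5.19% in the control and 9.88% in DMBA+TAM, Jag2 1.56% and 12.6%, and Dll1 made up 65.8% of the ligands in the control and 11.2% in DMBA+TAM. In TAM short, Dll1 (51.8%) then stood above Dll4 (32.0%). Dll1 took 30.0% in DMBA and 26.3% in TAM long, below Jag1 at 38.1% and 48.7%. In DMBA replicate 2 Dll1 (33.0%) and Jag1 (35.8%) were close.

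**Figure D4:**
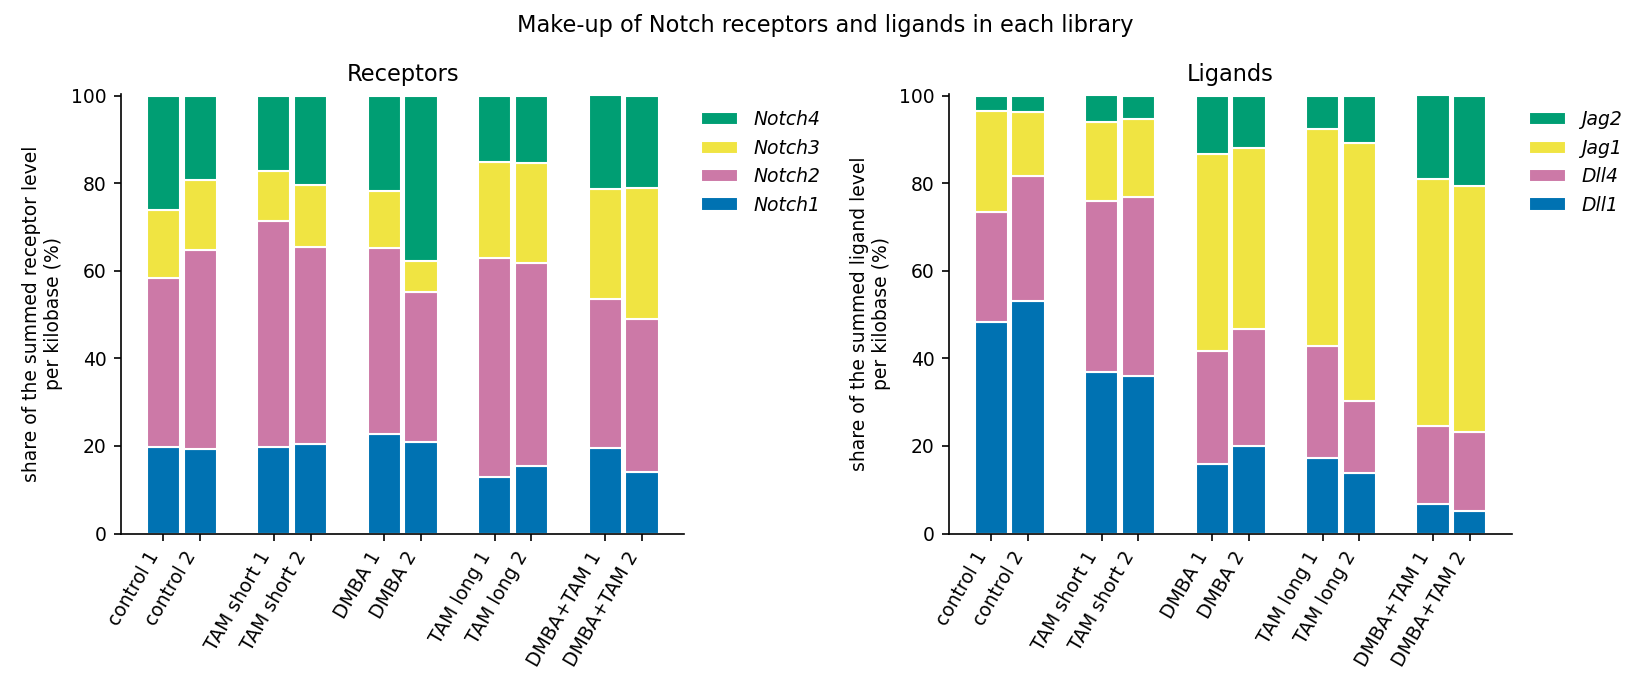
Share (%) of each receptor (left) and ligand (right) in the summed CPM per kilobase of listed length, with a bar for each library. Dll1 takes 48.4% and 53.1% of the ligand level in the control libraries and 6.69% and 5.10% in DMBA+TAM, where Jag1 takes 56.5% and 56.2%.

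The machinery around the receptors was described by 5 lists of other pathway genes. Of their 37 tested genes, 19 rose and 9 fell in DMBA+TAM against the control, in a comparison where 64.3% of all genes passed, 29.0% higher and 35.3% lower. The lists are short, their counts carry no test, and they are given as a description. Of 8 genes for processing of ligands and receptors, 4 rose and 2 fell against the control (median 0.24): Aph1b (1.89) and Psen2 (1.36), subunits of gamma-secretase, rose, while Psenen and Ncstn, also subunits, fell by 1.08 and 0.50, and Adam10, the main ADAM protease of Notch, differed by 0.00 ± 0.141 (adjusted p = 0.998). Of 5 genes for glycosylation of the receptors, 4 rose and 1 fell (median 1.17). The fringe enzymes, which tune the response to Delta-like and Jagged ligands, split: Mfng rose by 3.20 and Lfng by 2.82, and Rfng fell by 1.13, while the O-glycosyltransferases Poglut1 and Pofut1 rose by 1.17 and 0.65. Of 12 genes for ligand endocytosis and receptor turnover, 6 rose and 4 fell (median 0.31), among them Numbl, up by 3.38, Dtx3, up by 2.78, and Numb, an inhibitor of Notch, down by 2.29. Dtx1 also fell, on 1 and 2 counts in DMBA+TAM, which makes it 8.35-fold lower (95% exact interval 2.78 to 41.1, counting error only).

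In the nucleus, Rbpj, the DNA-binding partner of the Notch intracellular domain, was at 29.6 ± 0.577 CPM in the control (SD, n = 2) and 159 ± 11.8 in DMBA+TAM, a rise of 2.43 ± 0.132 (adjusted p = 1.92e-07). Of the 8 genes of the nuclear complex and its co-repressors, 3 rose and 2 fell (median 0.41, background 64.3%, 29.0% higher and 35.3% lower). Maml2, a Mastermind-like coactivator, rose by 2.07, while Tle1, a Groucho-type co-repressor, and Snw1 fell by 2.68 and 0.55. Of 4 other ligands and targets tested, Hey1 rose by 1.80 ± 0.479 (adjusted p = 0.00783), Hey2 (0.70) and Nrarp (0.69) did not pass, and Dlk1, a Delta-like protein known as a non-canonical ligand, rose from 1 and 0 counts to 5 and 21 (107-fold, 95% exact interval 17.6 to 4380, counting error only; adjusted p = 0.00966). Dlk1 was not particular to DMBA+TAM, with 111 and 78 counts in DMBA and 7 and 74 in TAM long. Dll3, Hes5, Hes7 and the secretory fate gene Neurog3 were too low to be tested. Over the 37 genes of the 5 lists DMBA gave 10 rises and 6 falls against the control (background 47.8%) and TAM long 8 rises and 9 falls (background 46.0%), shares close to those of all genes.

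**Figure D5:**
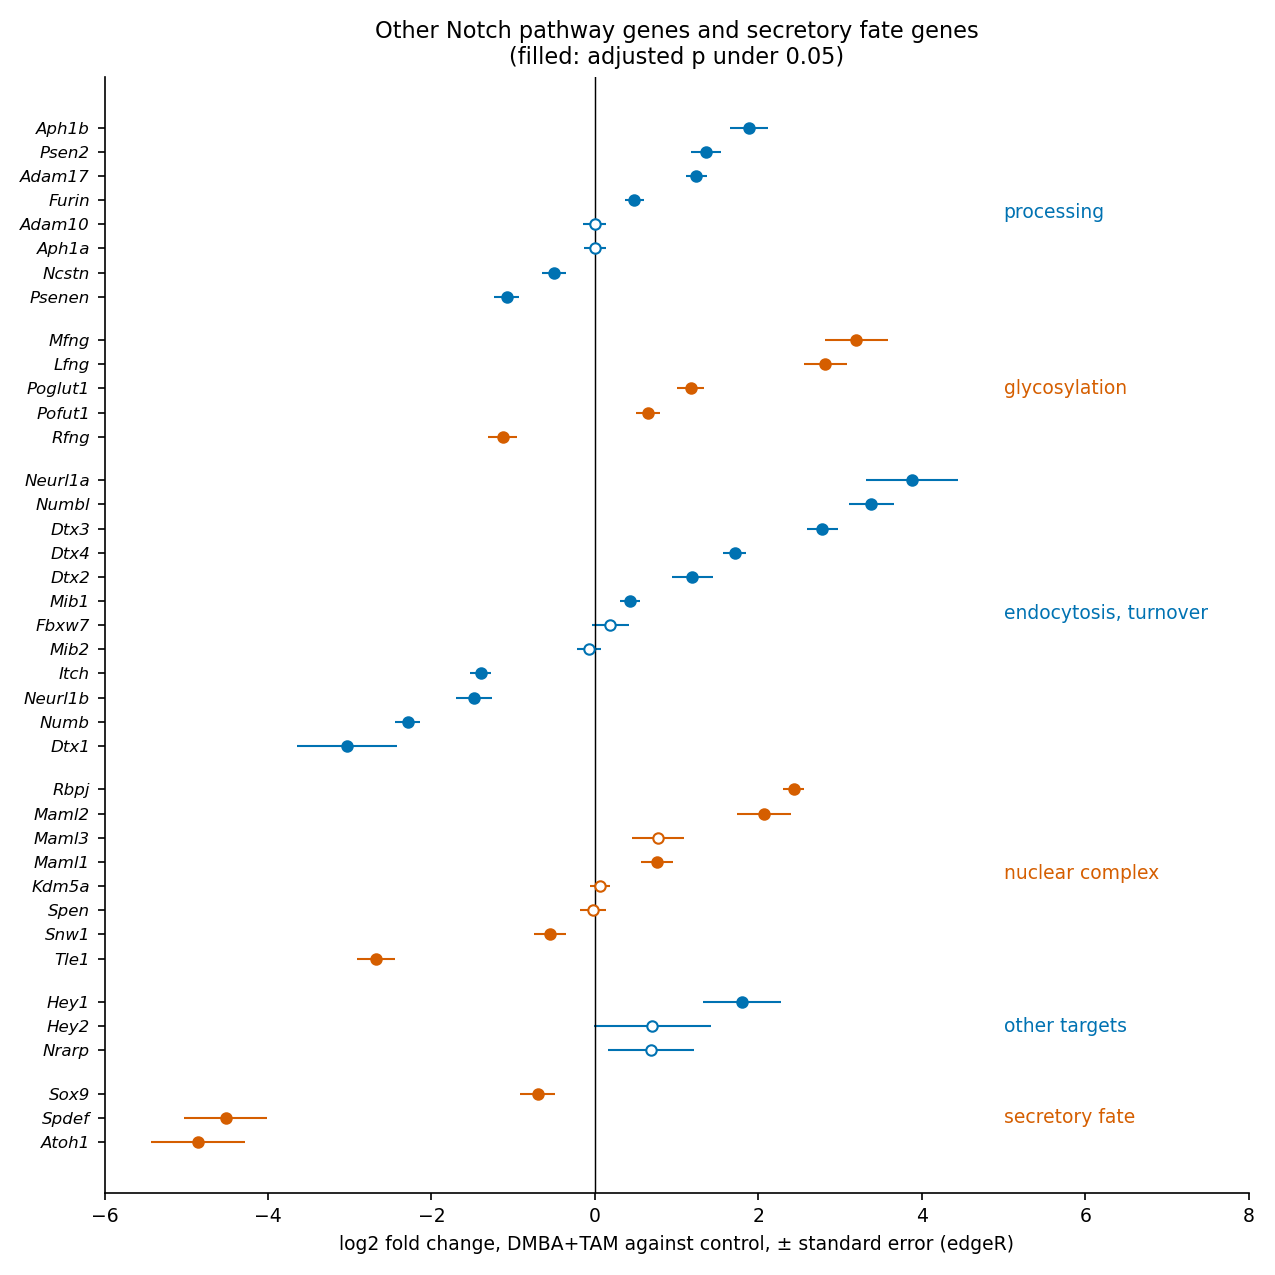
Log2 fold change of DMBA+TAM against control with its standard error (edgeR) for the other Notch pathway genes and secretory fate genes, filled where the adjusted p was under 0.05. Gfi1, Insm1 and Dlk1, at or near 0 counts in a group, are left out; Rbpj stands at 2.43, Numb at −2.29 and Atoh1 at −4.86.

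The secretory fate genes moved in opposite directions in the groups where Hes1 was high. In DMBA+TAM all 5 tested genes passed as lower than in the control (background 35.3% lower), although Insm1 had only 9 and 8 counts in the control, too few for a fold at this depth. Atoh1 had 2 and 0 counts there against 129 and 118 (30.0-fold lower, 95% exact interval 8.22 to 249), and Spdef, a factor of goblet and Paneth cells, had 0 and 3 against 165 and 124 (23.4-fold lower, 7.93 to 114), intervals that cover counting error only. Gfi1, without a count in these libraries, was at least 3.26-fold lower with 3 counts per library as the floor; Insm1, an enteroendocrine factor, also had none, but its control level of 0.991 CPM lies under that floor. Sox9, a crypt and Paneth cell factor, fell by 0.70 ± 0.212 (adjusted p = 0.0155). The fitted median of the list was −4.86, and −1.71 with Gfi1 at its bound and Insm1 at 0, against −0.17 over all genes.

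In DMBA, where Hes1 rose by 1.26, 4 of the 5 secretory fate genes also rose (background 24.5% higher): Spdef (2.63), Sox9 (2.63), Atoh1 (1.97) and Gfi1 (1.66). The median of the 5 tested genes was 1.97, against 0.07 over all genes. In TAM long, with Hes1 up by 1.23, Spdef (2.22), Sox9 (2.09) and Atoh1 (1.36) rose (background 23.2% higher), Gfi1 (0.46) and Insm1 (0.42) did not pass, and the median was 1.36 against 0.05. In TAM short, where Hes1 did not pass (0.29, adjusted p = 0.47), Atoh1 rose by 0.87 (adjusted p = 0.037). Small intestinal markers were lower in DMBA, TAM long and TAM short than in the control, and colon markers higher in DMBA and TAM long. For the secretory fate genes too, gut segment and treatment therefore cannot be told apart in these comparisons. The Hes1 levels of DMBA and DMBA+TAM overlapped, while Atoh1 was at 56.5 ± 14.8 CPM in the former and 0.528 ± 0.747 in the latter (SD, n = 2). The epithelial markers, at 16300 to 16900 CPM in DMBA and 24.2 to 39.6 in DMBA+TAM, moved with this contrast, and their part in it was not tested.

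Likeness of pattern was described by Pearson's r of log2 CPM over the 10 libraries, which share 5 groups and the depth gap of DMBA+TAM, among the 11052 genes whose mean count was 50 or more. Among the 7 members with the DMBA+TAM peak, r ran from 0.78 (Jag1 with Notch1 and with Notch4) to 0.98 (Notch2 with Heyl), with 0.97 between Notch1 and Notch4 and 0.82 between Notch3 and Notch4. These members were grouped by that peak in the same libraries, so high r among them was largely set in advance. It was not compared with r among other genes that rose in DMBA+TAM. Hes1 followed the receptors less, with r of 0.39 to 0.43, and ran against Dll1 (−0.84). The most similar genes were Tgfbr2, Cmtm3 and Bgn for Notch2 (0.997 to 0.996), Myh9, Adamts10 and Pacs1 for Notch1, S100a11, Ice1 and Aida for Notch3, and Adamts10, Man2b2 and Notch1 for Notch4. For the ligands they were Tmem120a, Rabl3 and Erap1 (Dll1), Spryd3, Thoc3 and Ube2q1 (Dll4, at most 0.958), Nedd4, P3h4 and Mark1 (Jag1) and Ctgf, Ldlrad4 and Arhgef40 (Jag2). Hes1 was most like Eif2ak4 (0.984), Ffar2 and Pomgnt1, and Heyl most like Slc39a6 (0.998), Folr2 and Sned1.

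Exons of 5 members overlap other genes in GENCODE M21. Notch1 shares 1068 bases with 0610009E02Rik and 414 with Gm13568, Notch2 541 with Gm42820, Notch3 488 with the antisense gene Gm17276, Dll1 867 with A930024N18Rik and Dll4 214 with Gm14207. Whether the counting used strand is not given in the sources used here, so reads from the shared stretches cannot be assigned to a gene with certainty. Notch4, Jag1, Jag2, Hes1 and Heyl share no exon bases with another gene in that annotation.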

How the data were processed

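RNA-seq of 10 libraries in 5 groups of 2 was analysed, grouped by the protocol in the labels. The authors purified mRNA with poly-T beads, made libraries with a NEBNext Ultra kit, used TopHat for mapping and HTSeq for counts per gene, and derived FPKM from those; their processing notes name GRCm38.p6. The deposited table holds raw counts and FPKM values per gene and library, a listed gene length, and p-values and fold changes of the authors' own comparisons, which were not used. Of 47074 lines, 5 were parts of split lines, and 47069 genes remained.

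Counts were filtered with filterByExpr, scaled by TMM and fitted over all 5 groups with edgeR 4.0.16 (glmQLFit, glmQLFTest; R 4.3.3), with Benjamini-Hochberg adjustment over 16179 genes; a call is an adjusted p under 0.05. All 10 pairwise comparisons and 1 interaction were tested. Normalized CPM are counts divided by the TMM-scaled library totals and scaled to a common total; 3 counts served as the floor, and intervals from counts cover counting error only. Promoters came from RefSeq (GRCm38.p6) and overlaps from GENCODE M21. The procedure was tested on simulated data in which few genes changed, equally many up and down. That setting differs from DMBA+TAM against control, where most genes passed, so it does not bear on the scaling there. Alternatives were library size scaling, DESeq2 1.42.0, no filter, a replicate block, limma 3.58.1 on log2(FPKM + 1) and log2(FPKM + 0.1), thinning to 1592366 counts, fits of only the groups compared, leaving out each library, and for the shares no length and, chosen after seeing the data, the length behind FPKM and, for the interaction, TAM short in place of TAM long. The members and gene lists were chosen with earlier results of these data known. Named were all members; for pathway lists of over 6 tested genes, up to 2 called genes that rose most and 2 that fell most in DMBA+TAM against control with a mean of at least 50 counts, and shorter lists whole; preset defining markers of the marker lists; Adam10 and the other pericyte and smooth muscle genes, picked after their values were seen; and the 3 genes most like each member. Values of the remaining list genes enter only counts and sums, and 2 genes were taken out of the lists and are not reported here. Exome, protein and patient data were not analysed here.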

Additional observations from a re-analysis of the deposited data

Results flagged for a closer look

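For 8 members, the change with TAM differed between cultures with and without DMBA by the test of the difference itself (edgeR, TAM long as the TAM group, adjusted p under 0.05). On the log2 scale the differences were 2.25 for Notch1, 1.82 for Notch2, 3.13 for Notch3 and 2.26 for Notch4. They were 1.61 for Dll1, 1.31 for Dll4, −1.34 for Hes1 and 2.52 for Heyl. A positive value means a larger rise, a smaller fall or a rise in place of a fall when DMBA was present. With counts thinned to the total of the smallest library, Notch4, Dll1, Dll4 and Heyl no longer passed (adjusted p = 0.198, 0.321, 0.108 and 0.0792). With TAM short as the TAM group, which the unknown schedule of DMBA+TAM also allows, Hes1 was at −0.40, Dll1 at 0.11 and Dll4 at 0.11, and none of these 3 passed (adjusted p = 0.38, 0.852 and 0.837). Each rests on 2 libraries per group, and the depth of DMBA+TAM was 5.65-fold lower in the median than that of the other 8 libraries. Control had high small intestinal markers, DMBA and TAM long had high colon markers, and DMBA+TAM was low in both. Gut segment and treatment therefore cannot be told apart in these differences. DMBA+TAM also nearly lacked epithelial markers (24.2 to 39.6 CPM in sum, against 22300 to 23200 in the control), and their part was not tested.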

How the results depend on the processing

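All 72 member changes past the threshold, over the 11 comparisons, kept their direction in each of their 904 values under the alternatives run. The 9 calls of DMBA+TAM against control and the 7 against DMBA passed under each alternative; against TAM long 90 of 96 and against TAM short 105 of 108 values did. The count of called members moved by over 1.5 times in these settings. With counts thinned to 1592366 it was 3 for DMBA vs control, 3 for TAM long vs control, 0 for TAM short vs control, 2 for TAM long vs TAM short, 0 for TAM long vs DMBA, 2 for DMBA vs TAM short and 4 for the interaction. With only the groups compared in the fit it was 5 for DMBA vs control and 0 for TAM long vs DMBA. With limma on log2(FPKM + 1) or log2(FPKM + 0.1) it was 0 for TAM short vs control, with log2(FPKM + 0.1) 1 for TAM long vs DMBA, and with library size alone 8 for TAM long vs control. Leaving out each library gave 4 to 7 for DMBA vs control, 0 to 0 for TAM short vs control, 3 to 5 for TAM long vs TAM short, 0 to 2 for TAM long vs DMBA and 5 to 9 for DMBA vs TAM short.

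Signs turned only for changes that had not passed the threshold, and the cause was not tested. Dll4 in DMBA+TAM vs control was 0.22 with library size alone and 0.19 and 0.22 with limma (FPKM + 1 and + 0.1), and 0.00 after thinning vs TAM short. Hes1 in DMBA+TAM was 0.07, 0.05 and 0.05 vs DMBA and 0.10, 0.08 and 0.08 vs TAM long in the same 3 settings, and −0.46 to 0.21 and −0.42 to 0.24 with each library left out. Notch3 in DMBA vs control was 0.29, 0.09 and 0.18, and −0.50 to 0.28. Notch4 in TAM long vs TAM short was 0.16, 0.12 and 0.16, 0.41 after thinning, and −0.17 to 0.03. Thinning also gave −0.13 for Notch2 and 0.59 for Notch4 in TAM long vs control; −0.35 for Notch2, 0.19 for Notch4, −0.07 for Dll4 and −0.07 for Heyl in TAM short vs control; −0.17 for Jag2 in TAM long vs TAM short; 0.65 for Dll1, 0.05 for Hes1 and 0.49 for Heyl in TAM long vs DMBA; and −0.28 for Notch3 in DMBA vs TAM short. With each library left out, Notch2 in TAM short vs control ran from −0.11 to 0.14, and in TAM long vs DMBA Hes1 from −0.17 to 0.09 and Heyl from −0.23 to 0.11.

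Library size alone moved the median log2 fold change of all genes in DMBA+TAM vs control from −0.17 to 0.31 and in DMBA vs control from 0.07 to 0.38, and the share of calls that were higher from 45.1% to 62.5% and from 51.2% to 71.2%. Calls over all genes in TAM long vs DMBA, 437 here, ranged from 29 (only these groups fitted) to 1615 (no filter). The deviations of libraries with the same replicate number had r of −0.04 to 0.09 between groups, and 0.21 between DMBA and TAM long, so the number was not taken as a pairing; the replicate block ended the calls of Dll4 in DMBA+TAM vs TAM long (adjusted p = 0.0521) and Heyl in TAM long vs TAM short (0.0596) and no other member call. Of the 40 shares of receptors and ligands, 30 moved by more than the SD without division by length and 36 with the length behind FPKM. The depth of DMBA+TAM limits the genes with few counts there, such as Dll1 (9 and 7) and Dtx1 (1 and 2).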
